A study of Mus musculus with 23 samples.

Results

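Livers of C57BL/6J mice, a common inbred strain, that had been injected with recombinant EPDR1 were compared with livers of mice injected with recombinant FCN2, by RNA sequencing of 4 libraries per group. The libraries were those whose titles name EPDR1 or FCN2 in batch 2, 8 of the 23 in the series. Both proteins were given in 3 injections at intervals of 1 day, each at 1 µg per g body weight, and all genes were compared. The levels of the 4 vehicle libraries of the same batch are given beside the others as context, and these libraries entered only the alternative fits in which they are named. The strain was the only genetic label. Age and sex are not given in the sources used here. Nothing in the labels ties the samples to separate animals, and the p-values therefore reflect only the spread among these samples, part of which may be technical. No 2 replicates agreed within counting error (chi-square per degree of freedom 9.07 to 20.6 over the 12 pairs). Depth was 3005739 to 4180013 counts for EPDR1, 2735871 to 7060707 for FCN2 and 2517701 to 21892416 for vehicle. Levels are in CPM (counts scaled to the library size), log2 differences are EPDR1 minus FCN2 with their SE, and means are given with SD (n = 4). The SE is the size of the log2 difference divided by the square root of the F statistic of edgeR's test.

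EPDR1 (ependymin-related protein 1) is a secreted glycoprotein of the ependymin family. FCN2 (ficolin-2) is a human serum lectin that binds sugars on microbial surfaces and starts the lectin pathway of complement through the MASP serine proteases. Hepatocytes make most plasma proteins, among them complement, clotting and acute phase proteins, while Kupffer cells, the resident macrophages, make the mouse ficolin encoded by Fcna. The comparison of 2 injected proteins asks which liver genes differed between them when injection of a recombinant protein is common to both.

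No gene passed the threshold. Of 54838 genes in the file, 10033 had enough counts to be tested, and edgeR's quasi-likelihood test called 0 of them (0.0%) at a Benjamini-Hochberg adjusted p under 0.05, the smallest adjusted p being 0.122. At an unadjusted p under 0.05 there were 1867 genes (18.6%), of which 990 (9.87%) were higher and 877 (8.74%) were lower in the EPDR1 libraries. limma-voom called 0 genes (0.0%) too, with 1874 (18.7%) at an unadjusted p under 0.05. DESeq2 called 103 genes (1.03%), 44 higher and 59 lower, with 1572 (15.7%) at an unadjusted p under 0.05, and gave no adjusted p for 2725. The 44 had a median GC content of 56.8% and the 59 of 40.8%. edgeR called 286 of 24034 genes (1.19%) without the filter on low counts, and 32 of 10454 (0.306%) when the vehicle libraries also entered the fit. Of those 32 genes, 30 were among the 103 called by DESeq2. The 4 libraries of one group lay entirely above or below the 4 of the other for 1084 genes (10.8%), with EPDR1 above in 528 (5.26%) and below in 556 (5.54%). Since no gene was called, the genes below are named by their unadjusted p, and "higher" and "lower" describe measured levels. The 10 higher and 10 lower genes, and the 5 and 5 of the fit with the GC trend removed, were chosen among genes without overlap. For these genes the lack of overlap is thus a condition of the choice.

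The differences followed the base composition of the genes. Genes that were higher in the EPDR1 libraries at an unadjusted p under 0.05 had a median exonic GC content of 55.4%, and those that were lower had 42.1%, against 48.2% for all genes tested. Stretches of coding sequence are shown from 4 of the 20 genes with the smallest p described further on. These are the 2 genes of highest and the 2 of lowest exonic GC content among the 20. The stretches need not match the composition of the exons as a whole. Each is 90 bases from the middle of the longest coding exon, written 5′ to 3′ on the gene's strand from the GENCODE M21 transcripts (build GRCm38), with G and C in capitals.
Mbd3, chr10:80393146-80393235, minus strand: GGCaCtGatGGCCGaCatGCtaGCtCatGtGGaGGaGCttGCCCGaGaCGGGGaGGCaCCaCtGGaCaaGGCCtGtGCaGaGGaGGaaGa
Ncln, chr10:81489916-81490005, minus strand: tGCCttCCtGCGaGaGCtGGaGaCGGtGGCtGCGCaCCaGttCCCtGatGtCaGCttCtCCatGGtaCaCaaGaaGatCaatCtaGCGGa
Chac2, chr11:30977520-30977609, minus strand: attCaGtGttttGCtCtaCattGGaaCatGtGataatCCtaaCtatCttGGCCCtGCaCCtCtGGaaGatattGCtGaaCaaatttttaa
C1d, chr11:17266566-17266655, plus strand: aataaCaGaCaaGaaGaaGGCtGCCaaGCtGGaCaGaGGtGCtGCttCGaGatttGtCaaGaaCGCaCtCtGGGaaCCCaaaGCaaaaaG
G or C made up 62.2% of the stretch of Mbd3, a subunit of the NuRD chromatin complex, and 55.6% of that of Ncln, which encodes the endoplasmic reticulum protein nicalin. The share was 36.7% in Chac2, which encodes an enzyme that degrades glutathione, and 47.8% in C1d, a cofactor of the nuclear RNA exosome, whose exons as a whole had 37.4%. Mbd3 and Ncln were higher in the EPDR1 libraries, and Chac2 and C1d were lower.

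Across the 10027 tested genes with a GC value, the log2 difference and the GC content had a Pearson r of 0.615 and a Spearman rho of 0.642. This is a relation across genes, which are not independent replicates. All 16 pairs of 1 EPDR1 and 1 FCN2 library showed a positive relation, with a rho of 0.172 to 0.646. In the tenth of genes with the lowest GC content, between 31.2% and 40.8%, the median log2 difference was -0.31, and 33.4% of the genes were lower in EPDR1 at an unadjusted p under 0.05 while 0.299% were higher. In the tenth with the highest GC content, from 56.4% to 73.7%, the median was 0.43, with 37.2% of the genes higher and 0.399% lower. Gene length had a weaker relation to the log2 difference (rho of -0.148).

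The slope of each library's expression on GC content, in log2 per 10 percentage points of GC and relative to the mean of the 8 libraries, was 0.249, 0.222, 0.0879 and 0.167 in EPDR1 replicates 1 to 4. It was -0.0337, -0.262, -0.0634 and -0.368 in FCN2 replicates 1 to 4. In the vehicle libraries it ran from 0.251 to 0.355. The EPDR1 and FCN2 slopes did not overlap, FCN2 replicates 2 and 4 were the lowest of all, and the vehicle slopes lay above those of both groups. The mean was 0.182 ± 0.0713 in EPDR1 and -0.182 ± 0.16 in FCN2 (exact 2-sided permutation p = 0.0286, the smallest that 4 against 4 libraries allow; 0.157 adjusted over 11 library measures). What set the slopes apart was not tested.

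**Figure D1:**
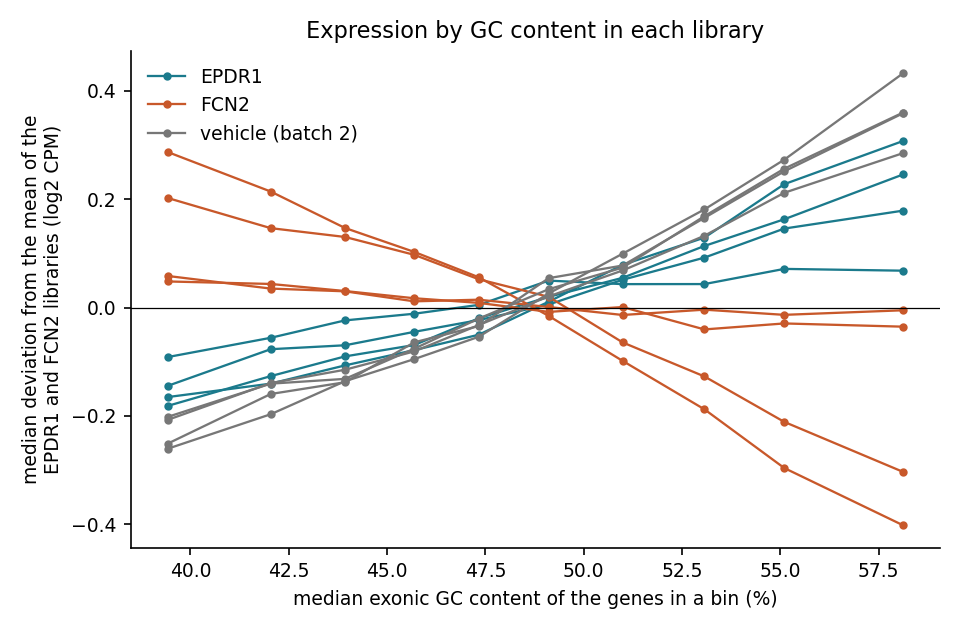
Median expression of the genes in each of 10 GC content bins (y axis, log2 CPM as deviation from the mean of the EPDR1 and FCN2 libraries) against the median exonic GC content of the bin (x axis, percent), with 1 line per library. EPDR1 and vehicle lines slope upward, FCN2 replicates 1 and 3 are nearly flat and FCN2 replicates 2 and 4 slope downward.

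When the trend on GC content was removed from each library, the count of genes at an unadjusted p under 0.05 was 814 (8.11%), with 362 higher (3.61%) and 452 lower (4.51%). edgeR called 0 genes (0.0%) in that fit, with a smallest adjusted p of 0.496. The median size of the log2 difference was 0.239 before and 0.166 after removal. Of the 1867 genes, 237 higher and 279 lower ones were at an unadjusted p under 0.05 with the same sign in both fits, and 57 had the opposite sign after removal. Without FCN2 replicates 2 and 4, a choice made after the slopes were seen, 797 genes (7.57%) were at an unadjusted p under 0.05 and 0 were called. The rho between the log2 difference and GC content was 0.472 without these 2 libraries. Without FCN2 replicate 4 alone, 1186 genes (11.6%) were at an unadjusted p under 0.05. Results below are given as fitted, and with the GC trend removed where so stated.

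**Figure D2:**
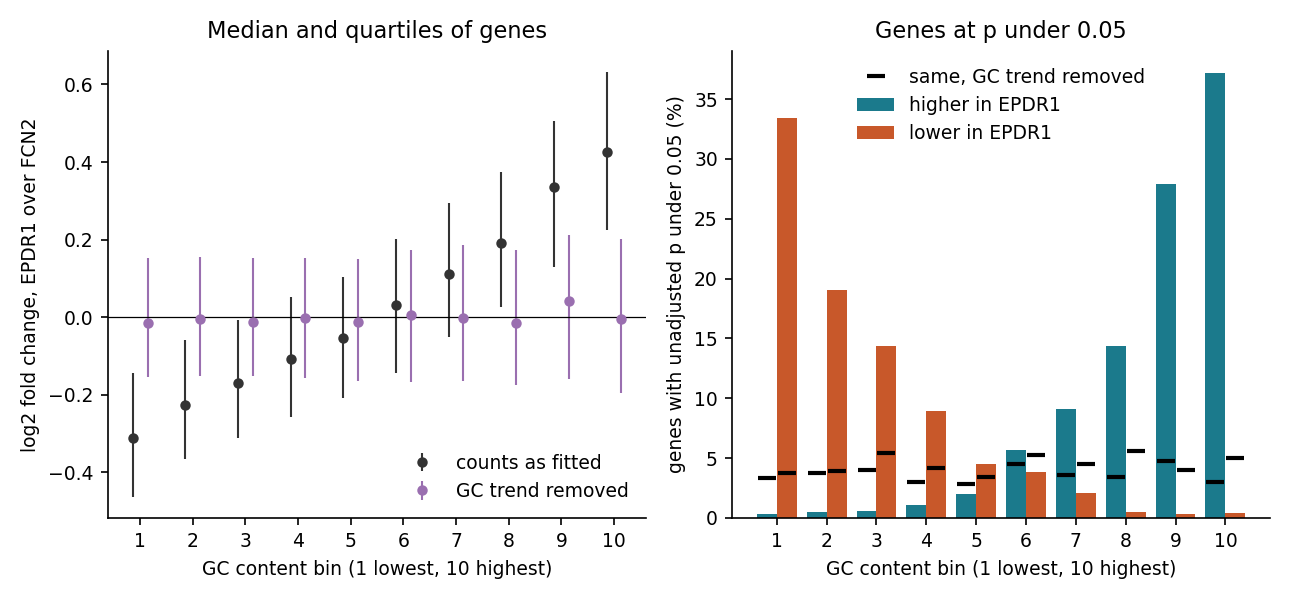
Left, median log2 difference of EPDR1 over FCN2 (points) with quartiles (lines) for 10 bins of genes by GC content, for the counts as fitted and with the GC trend removed; right, the percent of genes in each bin at an unadjusted p under 0.05, higher or lower in EPDR1 (bars), with the same after removal (black dashes). As fitted, the median runs from -0.31 in the lowest bin to 0.43 in the highest.

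Among the 10 genes that were higher in the EPDR1 libraries with the smallest p, log2 differences ran from 0.76 to 1.34 and exonic GC contents from 52.8% to 63.1%. Acaa1a (ENSMUSG00000036138, chr9:119339676-119350299) encodes a peroxisomal thiolase of fatty acid oxidation and had the smallest p of all genes. Its level was 89.0, 97.1, 77.2 and 86.1 CPM in EPDR1 replicates 1 to 4 and 51.3, 52.8, 55.3 and 47.4 CPM in FCN2 replicates 1 to 4. The groups did not overlap, and the mean in vehicle, 87.3 CPM, was nearly that of EPDR1. The log2 difference of Acaa1a was 0.76 ± 0.13 (edgeR unadjusted p = 3.36e-05, adjusted p = 0.122) and 0.43 ± 0.12 after removal of the trend (unadjusted p = 0.0035). Acaa1a has a close paralog, Acaa1b, and reads that mapped to both would not have been counted.

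Bola2, which encodes a partner of glutaredoxin in iron-sulfur cluster handling, was at 14.6, 16.2, 11.9 and 15.5 CPM in EPDR1 and at 8.34, 2.59, 5.5 and 5.15 CPM in FCN2. It had the largest log2 difference of these 10 genes, 1.34 ± 0.27, and 1.16 ± 0.25 after removal. Osgin1, a stress-induced growth inhibitor, was at 231, 126, 171 and 109 CPM in EPDR1 against 55.0, 72.7, 86.3 and 72.5 CPM in FCN2, with a log2 difference of 1.16 ± 0.22 and of 0.68 after removal. All 4 EPDR1 libraries were above all 4 FCN2 libraries for both genes. The others were Mbd3, Ncln, Hp, described with the acute phase genes, Man2b2, a lysosomal mannosidase, Zbtb48, a telomere-binding zinc finger protein, and the noncoding genes CT010467.1, annotated as ribosomal RNA, and Mir6236, annotated as a miRNA. For CT010467.1, levels of 3675 to 5530 CPM in EPDR1 and 1851 to 2825 CPM in FCN2 depend on which reads of repeated ribosomal sequence mapped uniquely.

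The 10 genes that were lower in the EPDR1 libraries had log2 differences from -1.37 to -0.67 and GC contents from 37.4% to 43.5%. Bche (ENSMUSG00000027792), which encodes the plasma butyrylcholinesterase made by hepatocytes, was at 114, 138, 142 and 142 CPM in EPDR1 and at 214, 212, 207 and 223 CPM in FCN2. The spread within each group was small beside the gap between them, which the choice of genes by a small p without overlap favours. Its log2 difference was -0.67 ± 0.13 (edgeR unadjusted p = 0.000116, adjusted p = 0.122) and -0.35 ± 0.13 after removal. Pde3b, a phosphodiesterase that lowers cAMP in response to insulin, was at 73.3, 110, 92.1 and 97.5 CPM in EPDR1 and at 149, 177, 128 and 188 CPM in FCN2, and its difference was -0.78 ± 0.16 and -0.52 ± 0.15 after removal. Zfp763, a zinc finger gene, had the largest difference, -1.37 ± 0.28 and -1.10 after removal, on low levels of 1.93 to 2.96 CPM in EPDR1 and 5.32 to 8.12 CPM in FCN2. The others were Chac2, the Src family kinase gene Yes1, the cohesin subunit gene Stag2, Pcmtd2, the membrane protein gene Tmem123, the zinc finger gene Zfp942 and C1d.

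For all 20 of these genes the sign stayed the same after removal of the GC trend, and 19 of the 20 were still at an unadjusted p under 0.05, the exception being Mbd3. Both fits use the same counts and the genes were chosen for a small p, so this is no independent check. Of all 1867 genes at an unadjusted p under 0.05 as fitted, 57 changed sign. The vehicle mean lay nearer to the EPDR1 mean than to the FCN2 mean for 19 of the 20, the exception being Zbtb48. These levels hold the GC trend, and the mean vehicle slope on GC, 0.299, was also nearer to that of EPDR1 (0.182) than of FCN2 (-0.182). The part of the trend in this nearness was not tested. No test of vehicle against either group was made.

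**Figure D3:**
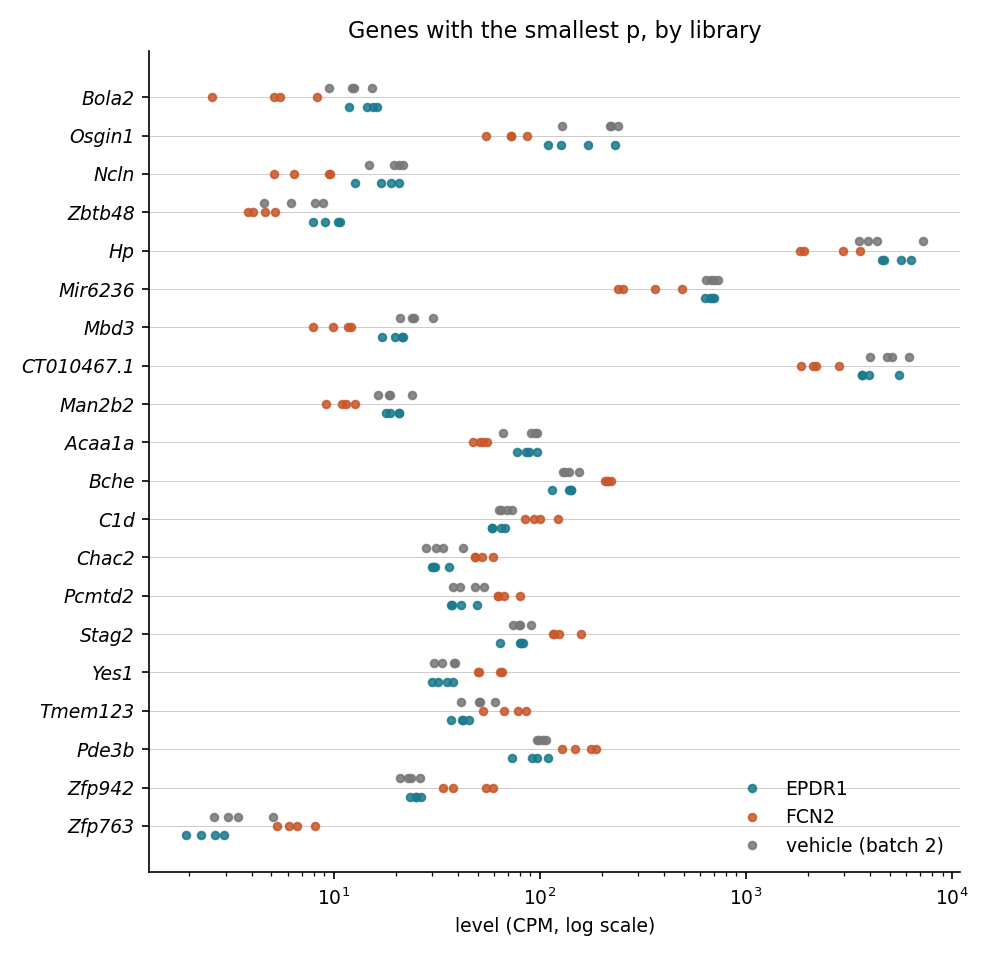
Level in CPM (x axis, log scale) of the 10 higher and 10 lower genes with the smallest p, with 1 point per library for EPDR1, FCN2 and vehicle of batch 2. The EPDR1 and FCN2 points of each gene do not overlap, as the choice of genes required. For 19 of the 20 genes the vehicle mean is nearer to that of EPDR1, in levels that hold the GC trend.

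The fit with the GC trend removed put other genes first. Its 5 higher genes with the smallest p were Bc1, a short neuronal noncoding RNA, Bola2, Nlrp12, an inflammasome-related receptor, Hp and Lsm2, a subunit of the ring that binds U6 RNA. Its 5 lower genes were S1pr1, the sphingosine-1-phosphate receptor of endothelial and immune cells, Ptch1, the Hedgehog receptor, Dsp, which encodes the junction protein desmoplakin, Dclk3 and Tmem123. S1pr1 was at 43.0, 46.8, 42.7 and 55.4 CPM in EPDR1 and at 69.1, 63.5, 78.9 and 77.0 CPM in FCN2. Its log2 difference was -0.62 ± 0.14 as fitted and -0.64 ± 0.13 after removal, and its GC content of 48.8% is close to the median. Ptch1 was at 22.3, 18.2, 17.4 and 28.2 CPM against 31.5, 32.5, 41.0 and 33.2 CPM, with differences of -0.68 ± 0.17 and -0.71 ± 0.17. Nlrp12 was at 107, 103, 123 and 80.6 CPM against 56.0, 60.6, 66.3 and 71.9 CPM, with differences of 0.70 ± 0.15 and 0.67 ± 0.15. The groups did not overlap for S1pr1, Ptch1 or Nlrp12, and none was called in either fit. Of these 10 genes, the vehicle mean was nearer to EPDR1 for 6 and nearer to FCN2 for 4.

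Acute phase genes, whose products the liver secretes in response to inflammatory cytokines, were mostly at higher levels in the EPDR1 libraries. Of 33 tested, 32 had a positive log2 difference, 13 were higher at an unadjusted p under 0.05 and 0 were lower, with a median of 0.63 against 0.0057 for all genes tested. After removal of the GC trend the counts were 5 higher and 0 lower, with a median of 0.46. The median GC content of the list was 50.2%. The median deviation of the list ran from -0.08 to 0.65 over the EPDR1 libraries, from -0.56 to 0.09 over FCN2 and from -0.68 to 0.29 over vehicle, so the groups overlapped. Over all genes tested, 9.87% were higher and 8.74% lower as fitted, and 3.61% and 4.51% after removal. The counts of this list and of the lists below are to be read beside these shares.

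Hp (ENSMUSG00000031722), which encodes haptoglobin, the plasma protein that captures free haemoglobin, was at 6328, 4593, 5676 and 4689 CPM in EPDR1 and at 3592, 1913, 2960 and 1822 CPM in FCN2. All 4 EPDR1 libraries were above all 4 FCN2 libraries. Its mean was 5322 ± 831 CPM in EPDR1 and 2572 ± 854 CPM in FCN2, with a log2 difference of 1.05 ± 0.22 (edgeR unadjusted p = 0.000226, adjusted p = 0.122) and 0.80 ± 0.18 after removal. Vehicle libraries were at 3536 to 7266 CPM, a range that overlapped both groups. Orm2, an orosomucoid, was at 91.9, 106, 82.7 and 59.2 CPM in EPDR1 and at 49.3, 26.6, 26.4 and 53.2 CPM in FCN2, and its difference of 1.11 ± 0.26 was nearly the same after removal, at 1.08 ± 0.26. Vehicle replicates 1, 2 and 4 were at 26.1 to 42.1 CPM for Orm2, about the range of FCN2, and vehicle replicate 3 was at 170 CPM.

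Other acute phase genes varied more between replicates. Lcn2, which encodes the iron-scavenging lipocalin 2, was at 133, 55.9, 210 and 30.8 CPM in EPDR1 and at 39.8, 7.02, 31.6 and 17.6 CPM in FCN2. EPDR1 replicates 1 and 3 were the highest, and EPDR1 replicate 4 was below FCN2 replicate 1. The log2 difference of Lcn2 was 2.12 ± 0.75 as fitted and 1.92 ± 0.73 after removal. Saa1, a serum amyloid A gene, was at 2076, 2127, 3749 and 1906 CPM in EPDR1 and at 1884, 318, 1117 and 712 CPM in FCN2, and vehicle replicate 3 was at 3870 CPM while the other vehicle libraries were at 430 to 611 CPM. The count of 13 higher genes changed with the library left out. It was 5 without EPDR1 replicate 1, 3 without EPDR1 replicate 3, 4 without FCN2 replicate 2 and 5 without FCN2 replicate 4. It was 11 without EPDR1 replicate 2 or FCN2 replicate 1, 12 without FCN2 replicate 3 and 13 without EPDR1 replicate 4. Without FCN2 replicates 2 and 4 together it was 5, with a median of 0.26. Leaving out 1 library gave medians of 0.45 to 0.77, and no gene was lower in any of these fits. Fewer libraries also give the test less power. The count of 5 after removal was 2 without EPDR1 replicate 1, EPDR1 replicate 3 or FCN2 replicate 4, 3 without FCN2 replicate 2, 8 without FCN2 replicate 1, 11 without EPDR1 replicate 2, and 12 without EPDR1 replicate 4 or FCN2 replicate 3. Close paralogs such as Orm1 and Orm2, or Saa1 and Saa2, may have lost reads that mapped to both.

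**Figure D4:**
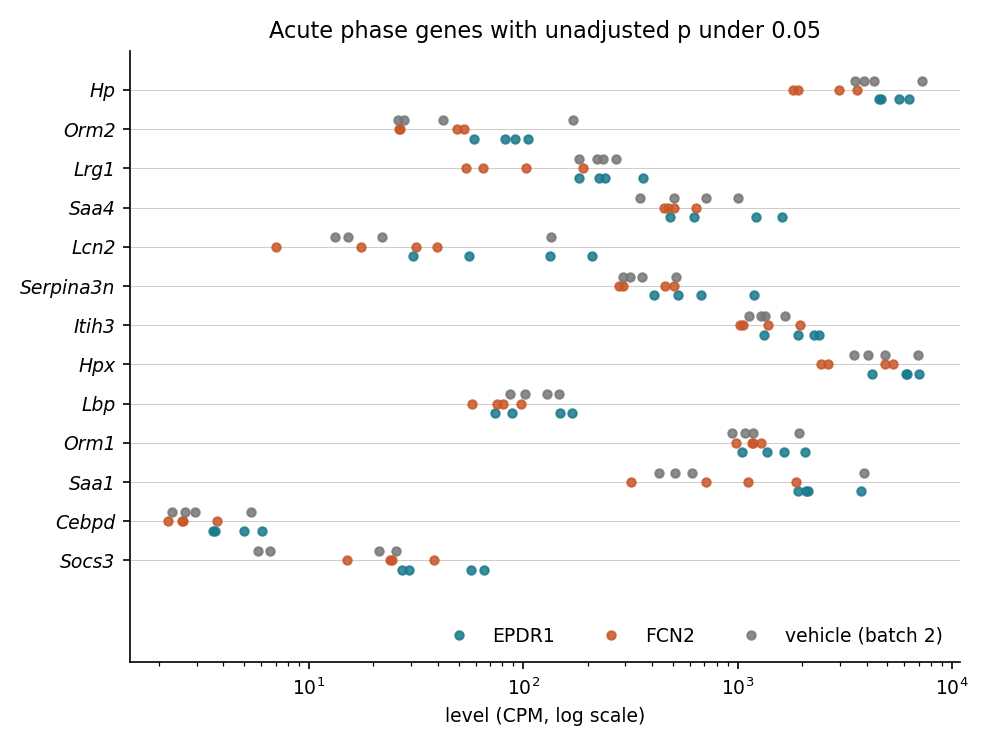
Level in CPM (x axis, log scale) of the 13 acute phase genes at an unadjusted p under 0.05, with 1 point per library for EPDR1, FCN2 and vehicle of batch 2. Hp, Orm2 and Saa1 have every EPDR1 point above every FCN2 point, and vehicle replicate 3 is the highest vehicle library for Hp, Orm2, Lcn2 and Saa1.

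Genes of the lectin pathway, on which FCN2 acts, were measured in 10 cases, of which 3 were higher and 0 lower in the EPDR1 libraries at an unadjusted p under 0.05. The list's median log2 difference was 0.32, and 0.20 after removal, when 1 gene, Masp2, was higher. The median deviation of the list was 0.07 to 0.18 in the EPDR1 libraries and -0.07 to 0.15 in vehicle. In FCN2 replicates 1 to 4 it was -0.027, -0.198, -0.0027 and -0.211, so replicates 2 and 4 lay furthest from EPDR1. Fcna (ENSMUSG00000026938, chr2:25624666-25628030), the mouse ficolin gene of Kupffer cells, was at 18.9, 19.7, 25.9 and 25.6 CPM in EPDR1 and at 15.9, 14.8, 8.25 and 13.9 CPM in FCN2. The groups did not overlap, and vehicle was at 18.8 to 28.6 CPM, near EPDR1. Its log2 difference was 0.75 ± 0.21 (edgeR unadjusted p = 0.00261, adjusted p = 0.137) and 0.44 ± 0.22 after removal (unadjusted p = 0.0689). The other 2 higher genes were C4b, a complement C4 gene, at 0.52 ± 0.19 and 0.23 after removal, and Masp2, the protease that cleaves C4, at 0.43 ± 0.19 and 0.43 after removal. Of the mannose-binding lectins, Mbl1 had a difference of 0.27 ± 0.13 and Mbl2 of -0.33 ± 0.20, neither at an unadjusted p under 0.05. The count of 3 was 1 without EPDR1 replicate 1, 2 without FCN2 replicate 2, 1 without FCN2 replicate 4 and 1 without FCN2 replicates 2 and 4 together. After removal the count of 1 was 0 without FCN2 replicate 2 or FCN2 replicate 4 and 3 without FCN2 replicate 3. Without EPDR1 replicate 4, 1 gene was lower in either fit.

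The mouse genes for the injected proteins themselves were nearly silent, apart from Fcna. Epdr1 had 2, 1, 0 and 1 counts in the EPDR1 libraries, 2, 0, 2 and 0 in the FCN2 libraries and 2, 5, 0 and 1 in vehicle, too few to be tested. Fcnb, the ficolin of myeloid cells, had 0 counts in all 12 libraries, which over a group allows a level of up to 0.207 CPM in EPDR1 and 0.167 CPM in FCN2 (3 counts, counting error only). Injected protein leaves no RNA, so these counts do not check the labels of the groups.

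Antigen presentation genes, of class I and class II, and interferon-response genes were compared next. All 17 antigen presentation genes had positive log2 differences, 7 at an unadjusted p under 0.05, with a median of 0.38. After removal of the GC trend the median was 0.10 and 0 of the 17 were at an unadjusted p under 0.05. H2-D1, a classical class I heavy chain gene, was at 389, 259, 282 and 256 CPM in EPDR1 and at 243, 206, 186 and 179 CPM in FCN2, with differences of 0.54 ± 0.17 and 0.32 ± 0.15. The groups did not overlap for H2-D1, though class I genes are close in sequence and can share reads. The count of 7 was 1 without EPDR1 replicate 1, 3 without FCN2 replicate 2, 2 without FCN2 replicate 4 and 1 without FCN2 replicates 2 and 4 together. After removal, the count of 0 was 3 without EPDR1 replicate 2, 1 without EPDR1 replicate 3, and 2 without EPDR1 replicate 4 or FCN2 replicate 1.

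Of 34 interferon-response genes, 6 were higher and 0 lower, with a median of 0.28 as fitted and 0.27 after removal, when 1 was higher. This rested on EPDR1 replicate 1: without it, 2 genes were higher and 2 lower, and the median was -0.09. The count of 6 was 12 without EPDR1 replicate 2, 3 without FCN2 replicate 2, 3 without FCN2 replicate 4 and 2 without both of these. After removal the median was -0.02 without EPDR1 replicate 1, and the count of 1 was 12 without EPDR1 replicate 2, 5 without FCN2 replicate 1, and 2 without EPDR1 replicate 3 or FCN2 replicate 4. Rsad2, the gene for the antiviral protein viperin, named here after its values were seen, was at 337 CPM in EPDR1 replicate 1 and at 14.7, 25.4 and 24.6 CPM in the other EPDR1 libraries, against 18.7, 9.6, 20.9 and 15.4 CPM in FCN2. Bst2, the gene for tetherin, was at 79.6, 53.8, 54.9 and 65.7 CPM in EPDR1 against 55.2, 31.8, 45.9 and 33.5 CPM in FCN2, with differences of 0.60 ± 0.19 and 0.27 ± 0.15.

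Zinc finger genes with names in Zfp encode mostly DNA-binding proteins, many of which silence transposable elements. Of 224 tested, 53 were lower and 7 higher in the EPDR1 libraries at an unadjusted p under 0.05, with a median log2 difference of -0.25. EPDR1 lay entirely below FCN2 for 35 of them, and for 5.54% of all genes tested. The median GC content of the 224 was 43.1%. After removal of the GC trend 20 were lower and 1 higher, and the median was -0.08. Zfp942 was at 26.6, 23.5, 25.1 and 25.2 CPM in EPDR1 and at 38.1, 54.6, 33.8 and 59.4 CPM in FCN2, with differences of -0.88 ± 0.18 and -0.53 ± 0.15. FCN2 replicates 2 and 4 were the highest, and vehicle was near EPDR1 at a mean of 23.5 CPM. The 7 that were higher, among them Zfp523 at 1.03 ± 0.24, had GC contents of 51.7% to 60.2%. By library, the list's median ran from -0.17 to -0.0032 in EPDR1 and from 0.01 to 0.23 in FCN2, without overlap, and from -0.18 to -0.12 in vehicle. Without FCN2 replicates 2 and 4, 19 were lower. Without FCN2 replicate 4 alone the median was -0.16 and 4 were higher, and 13 were higher without EPDR1 replicate 3 and 11 without FCN2 replicate 3. The count of 20 lower genes after removal was 10 without FCN2 replicate 4, 11 without FCN2 replicate 2 and 13 without EPDR1 replicate 2. The median after removal was -0.12 without EPDR1 replicate 1 and -0.13 without FCN2 replicate 1.

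Nuclear genes for mitochondrial respiration and for ribosomes had more members higher than lower. Of 48 nuclear genes of oxidative phosphorylation, 13 were higher and 1 lower, with a median of 0.17, and 6 and 2 with a median of 0.12 after removal. Ndufb7, a subunit of complex I, had a log2 difference of 0.72 ± 0.19 and of 0.50 after removal. The 7 tested genes of the mitochondrial genome had a median GC content of 37.1% and a median of -0.16, which became 0.17 after removal; 0 were higher and 1 lower as fitted. Without FCN2 replicate 4 the median as fitted was -0.01. Among them mt-Nd2 was lower at an unadjusted p of 0.0455 as fitted and had a difference of 0.06 after removal. Of 63 cytosolic ribosomal protein genes, 12 were higher and 1 lower with a median of 0.25, and 6 and 1 with a median of 0.12 after removal. Of 74 mitochondrial ribosomal protein genes, 16 were higher and 2 lower, and 10 and 2 after removal, with Mrpl46 at 0.52 ± 0.15 and 0.31. Ribosomal protein genes have many processed pseudogenes that can take up or block reads. Without FCN2 replicates 2 and 4, 3 of the oxidative phosphorylation genes and 0 of the cytosolic ribosomal protein genes were higher. The count of 13 was 7 without FCN2 replicate 2 and 8 without FCN2 replicate 4, the count of 12 was 23 without FCN2 replicate 1 and 7 without FCN2 replicate 4, and the count of 16 was 9 without EPDR1 replicate 2, EPDR1 replicate 4 or FCN2 replicate 2. After removal, leaving out 1 library gave 3 to 13 higher genes of oxidative phosphorylation (3 without FCN2 replicate 2 or 4, 13 without FCN2 replicate 1 and 11 without FCN2 replicate 3). It gave 2 to 12 higher cytosolic ribosomal protein genes (2 without EPDR1 replicate 4 or FCN2 replicate 2, 3 without FCN2 replicate 4 and 12 without FCN2 replicate 3). For mitochondrial ribosomal protein genes the count was 4 without EPDR1 replicate 2 or FCN2 replicate 2, and 6 without EPDR1 replicate 4 or FCN2 replicate 1.

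Lipid and glucose genes had members at higher and at lower levels. Several of their counts lay near the shares over all genes tested, 9.87% higher and 8.74% lower as fitted, and 3.61% and 4.51% after removal. Of 34 PPAR-alpha target and fatty acid oxidation genes, 6 were higher and 2 lower, with a median of 0.09 and of -0.0075 after removal, when 2 were higher and 2 lower. Without 1 library the median as fitted ran from -0.10 (without EPDR1 replicate 2) to 0.19 (without EPDR1 replicate 1 or FCN2 replicate 2), and it was 0.05 without FCN2 replicate 1 and 0.01 without FCN2 replicate 3. After removal it ran from -0.13 to 0.12, positive without EPDR1 replicate 1, FCN2 replicate 2 or FCN2 replicate 4. The count of 2 lower genes after removal was 1 without EPDR1 replicate 1 or FCN2 replicate 4. The 4 genes at an unadjusted p under 0.05 in both fits were Acaa1a and Angptl4, an inhibitor of lipoprotein lipase, which were higher, and Ppargc1a, the coactivator of gluconeogenesis and mitochondrial genes, and Pdk4, the kinase that restrains pyruvate dehydrogenase, which were lower. Their log2 differences as fitted were 0.76 for Acaa1a, 0.73 ± 0.17 for Angptl4, -0.75 ± 0.21 for Ppargc1a and -1.08 ± 0.32 for Pdk4. The groups did not overlap for any of the 4. After removal the differences were 0.43, 0.63, -0.52 and -0.95. Of 16 genes of gluconeogenesis and fasting, 4 were higher (Cebpb, Creb3l3, Gpt and Pcx) and 1 lower (Ppargc1a), with a median of 0.14. After removal 0 were higher and 2 lower (Ppargc1a and Fbp1, which encodes a key enzyme of gluconeogenesis), with a median of 0.0013. As fitted, 2 were higher without EPDR1 replicate 2 and 2 lower without EPDR1 replicate 4, and the median ran from 0.06 without FCN2 replicate 4 to 0.31 without FCN2 replicate 1, with 0.09 without EPDR1 replicate 3 and 0.27 without EPDR1 replicate 1. After removal it ran from -0.22 without EPDR1 replicate 3 to 0.09 without EPDR1 replicate 1, where 0 genes were lower.

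Of 26 apolipoprotein and lipoprotein-handling genes, 6 were higher and 1 lower, and 3 higher and 3 lower after removal. As fitted, 2 were lower without EPDR1 replicate 3, EPDR1 replicate 4, FCN2 replicate 1 or FCN2 replicate 2. After removal, 1 was higher without EPDR1 replicate 2, FCN2 replicate 2 or FCN2 replicate 4, and 1 was lower without EPDR1 replicate 1 or FCN2 replicate 1 and 5 without EPDR1 replicate 4. Apoc3, which encodes an apolipoprotein that slows the clearance of triglycerides, was higher at 0.67 ± 0.20 and at 0.36 after removal. Of 25 cholesterol synthesis genes 3 were higher (Mvk, Mvd and Fdps, which encode enzymes of the mevalonate pathway) and 3 lower (Sc5d, Insig1 and Stard4), and after removal 1 was higher (Fdps) and 2 lower (Sc5d and Insig1). Sc5d, which encodes a late enzyme of the pathway, had the smallest p of the list, with differences of -0.61 ± 0.16 and -0.43. These counts rested on single libraries: as fitted they were 0 higher and 4 lower without FCN2 replicate 1, 1 and 2 without EPDR1 replicate 1, 1 and 1 without FCN2 replicate 4, 5 and 1 without EPDR1 replicate 4, and 5 and 2 without FCN2 replicate 3. After removal they were 3 and 1 without EPDR1 replicate 4, 3 and 2 without FCN2 replicate 3, and 0 higher with 0 to 2 lower without any one of the other 6 libraries. Of 23 genes of fatty acid and triglyceride synthesis, 1 was higher and 4 lower, and 0 and 2 after removal, when the median of 0.09 became -0.22. Among these, Acly, the enzyme that makes cytosolic acetyl-CoA, had differences of -0.40 ± 0.17 and -0.55, and Rdh11 of -0.47 ± 0.19 and -0.39. Without EPDR1 replicate 1, and likewise without FCN2 replicate 4, 0 of the 23 were lower; the count was 2 without EPDR1 replicate 3, 1 without FCN2 replicate 1 and 2 without FCN2 replicate 3. The median of 0.09 was 0.03 to 0.05 without EPDR1 replicate 2, EPDR1 replicate 3 or FCN2 replicate 2, and 0.15 without EPDR1 replicate 1. After removal, the median was -0.14 without EPDR1 replicate 1, and the count of 2 lower genes was 1 without EPDR1 replicate 1, EPDR1 replicate 3 or FCN2 replicate 4, 4 without EPDR1 replicate 2 and 6 without FCN2 replicate 2.

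Glucocorticoid target genes numbered 15, of which 2 were higher and 1 lower, and 3 higher and 1 lower after removal, when Klf9 joined the higher ones. The counts as fitted were near the shares over all genes tested, 9.87% higher and 8.74% lower. Cdkn1a, a cell cycle inhibitor that p53 and glucocorticoids induce, was at 18.2, 11.8, 33.1 and 10.4 CPM in EPDR1 and at 9.49, 5.17, 3.85 and 7.08 CPM in FCN2, without overlap. Its log2 difference was 1.46 ± 0.39, and 1.3 ± 0.41 after removal. Nr3c1, the glucocorticoid receptor gene, was at 93.1, 86.5, 96.0 and 101 CPM in EPDR1 and at 121, 126, 119 and 139 CPM in FCN2, also without overlap, with differences of -0.42 ± 0.12 and -0.33 ± 0.11. The third gene was Lcn2, and the count of 2, like the count of 3 after removal, was 1 without EPDR1 replicate 3 or without FCN2 replicate 2. Of 31 splicing and RNA-binding genes, which have a median GC content of 40.7%, 0 were at an unadjusted p under 0.05 as fitted and 4 were higher after removal: Srsf6, Rbm25, Hnrnpa2b1 and Hnrnph1. The count of 4 was 2 without EPDR1 replicate 1 and 1 without FCN2 replicate 2. As fitted, 1 gene of the list was lower without EPDR1 replicate 4.

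Over the 53 gene lists with at least 5 tested members, the median log2 difference of a list and its median GC content had a Spearman rho of 0.572, and of -0.0077 after removal. This is given as a description, since lists share genes and libraries, and the value after removal follows largely from the removal itself. The median changed sign on removal for 19 of the 53 lists. The lectin pathway and Zfp lists were the only 2 of the 53 whose library medians did not overlap between the groups. Of single genes tested, 10.8% did not overlap. The library medians hold the GC trend, and the median GC content was 49.1% in the lectin pathway list and 43.1% in the Zfp list. The part of the trend in their separation was not tested.

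**Figure D5:**
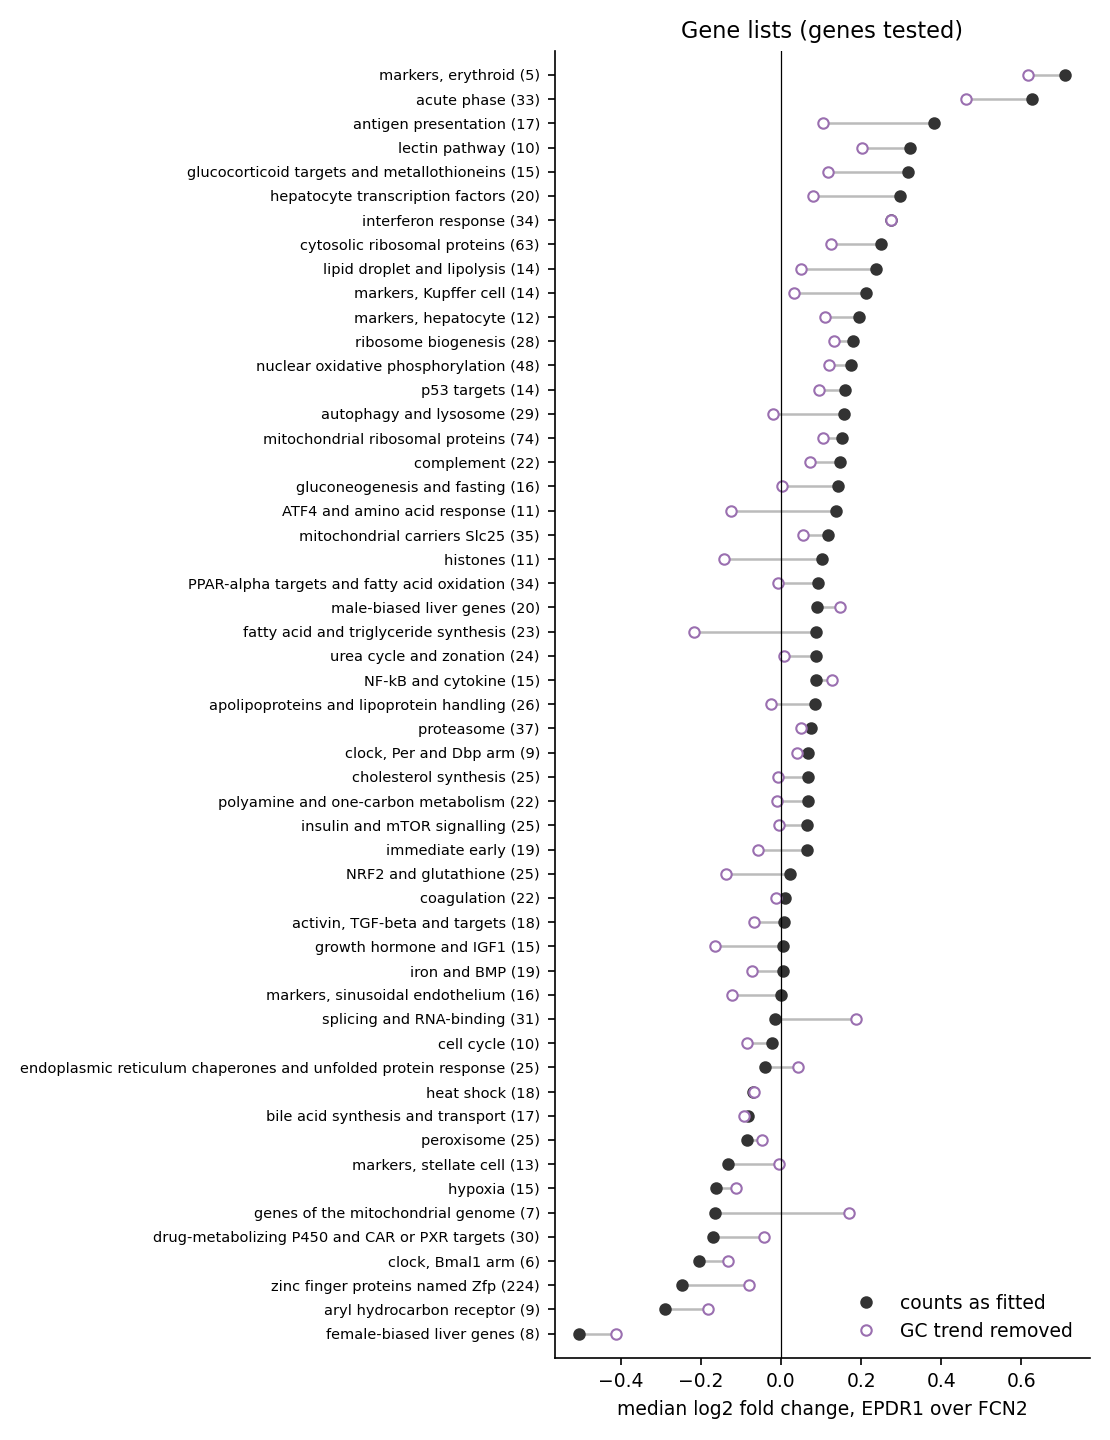
Median log2 difference of EPDR1 over FCN2 (x axis) for each of the 53 gene lists with at least 5 tested genes (number in brackets), for the counts as fitted (filled) and with the GC trend removed (open). The acute phase list keeps a median above 0.4 in both, while the mitochondrial genome and splicing lists move from below 0 to above it.

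The libraries were liver by their markers. The 12 hepatocyte markers summed to 94930 to 132500 CPM in EPDR1 and 113800 to 140500 CPM in FCN2, with 1 of 12 higher (Hpx, also in the acute phase list) and 0 after removal. In bulk tissue, fewer cells of a type and less RNA per cell cannot be told apart. Of 14 tested Kupffer cell markers, 1 was higher (Fcna) and 1 lower (Slc40a1, the iron exporter ferroportin), with 0 of either after removal, and the list summed to 311 to 461 CPM in EPDR1 and 237 to 556 CPM in FCN2. Of 16 sinusoidal endothelial markers, 2 were higher (Egfl7 and Stab1) and 1 lower (Bmp2), and 0 and 1 after removal, with sums of 303 to 453 and 358 to 401 CPM. As fitted, the Kupffer cell and endothelial counts were near the shares over all genes tested, 9.87% higher and 8.74% lower. The 13 T and NK cell markers were each too low to be tested and summed to at most 9.07 CPM in any of the 8 libraries. Of the 8 erythroid markers found, 5 were tested and 2 were higher, Hbb-bs at 0.63 ± 0.26 and Hbb-bt at 0.71 ± 0.31 (0.53 and 0.62 after removal, when 1 was higher), and the list summed to 220 to 309 CPM in EPDR1, 125 to 225 CPM in FCN2 and 178 to 236 CPM in vehicle. As fitted, leaving out 1 library gave 0 to 5 higher hepatocyte, 1 to 5 Kupffer cell, 0 to 3 endothelial and 0 to 4 erythroid markers. The haemoglobin share of counts was 0.018% ± 0.00518 in EPDR1 and 0.0108% ± 0.00396 in FCN2 (exact 2-sided permutation p = 0.0286, 0.157 adjusted over 11 measures), and 0.014% ± 0.00226 in vehicle. By library it was 0.01732%, 0.01418%, 0.01492% and 0.02548% in EPDR1 replicates 1 to 4. In FCN2 replicates 1 to 4 it was 0.01406%, 0.008919%, 0.01414% and 0.006133%. The groups thus nearly touched, and FCN2 replicates 2 and 4, which also had the lowest GC slopes, were the lowest. The mean haemoglobin share was higher in EPDR1, as were Hp and other acute phase genes, and its part in those differences was not tested.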

How the data were processed

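Liver RNA libraries were prepared from 800 ng of total RNA with a KAPA Hyper-prep kit and sequenced as paired reads of 50 bases, per the labels. The values that the authors deposited are unnormalized counts for each gene. The submitters' processing notes name STAR 2.6.0c and GRCm38. Per the file headers, featureCounts 1.6.3 made the counts from exons of Ensembl release 95. The command in the header sets no option for strand, pairs or multiple mapping, so by default reads were counted without strand and only where they mapped uniquely, and overlapping or antisense genes and close paralogs cannot be fully separated.

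All 23 count columns were mapped to samples by their titles, and the 8 of EPDR1 and FCN2 were used, both of batch 2. The fit used edgeR 4.0.16 under R 4.3.3 (filterByExpr, TMM factors, robust quasi-likelihood, a mean per group, no covariate), with Benjamini-Hochberg adjustment over all genes tested and a threshold of 0.05. DESeq2 1.42.0 and limma 3.58.1 (voom) were alternatives. Vehicle levels were scaled on the same reference. GC content was taken over the union of exons in GENCODE M21, in which 54123 of the genes have the coordinates of the file. The GC trend was fitted on each library's log2 CPM relative to the mean of the libraries. A prior count of 1, scaled to the library size, was added before the log. The trend was a natural spline of 4 degrees of freedom over genes whose mean reached 1 CPM, and entered as an offset. The slopes of single libraries on GC content used log2 levels with 1 CPM added instead. The fits were also run on simulated counts, with either no GC slope or the same slope in all libraries of a group. The slopes measured here varied within groups, which the simulation did not cover. Slopes and shares of 4 against 4 libraries were compared by exact permutation.

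The genes named are those with the smallest unadjusted p (10 higher and 10 lower, and 5 and 5 with the GC trend removed), a mean level of 1 CPM or more, groups that do not overlap and no predicted name, since none was called; the member with the smallest p of each list described, and further members with small p where the text singles them out, chosen after their values were seen; and Epdr1, Fcna and Fcnb. The comparison and the 61 gene lists were chosen with earlier results of these data known. No library was left out.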

Additional observations from a re-analysis of the deposited data

Results flagged for a closer look

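In 6 of 176 groups of 4 libraries checked, 1 library lay apart from the other 3 by more than Dixon's 95% limit, which chance exceeds in about 1 of 20 groups. The ribosomal RNA gene CT010467.1 was at 5530 CPM in EPDR1 replicate 2, against 3675 to 3937 CPM in the other EPDR1 libraries. EPDR1 replicate 1 was the lowest EPDR1 library for Bche, at 114.5 CPM against 138.5 to 142.0 CPM, and for Stag2, at 63.9 CPM against 80.0 to 82.9 CPM. The same library was the highest for the interferon-induced gene Rsad2, at 337 CPM against 14.7 to 25.4 CPM. EPDR1 replicate 3 was the highest for the acute phase gene Saa1, at 3749 CPM against 1906 to 2127 CPM. FCN2 replicate 2 was the lowest FCN2 library for Acly, at 170 CPM against 251 to 266 CPM. Rsad2, Saa1 and Acly were chosen after their values were seen.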

How the results depend on the processing

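The count of 0 called genes stayed 0 with limma-voom, other size factors, a filter at 10 CPM, no robust estimation, all 23 libraries, removal of the length, GC or both trends, and protein-coding nuclear genes alone. It was 103 with DESeq2, 286 without a filter and 32 with the vehicle of batch 2 in the fit. The labels do not say whether replicate numbers pair the samples. Deviations of same-numbered libraries from the mean of their group had correlations of 0.0167, 0.267, -0.0474 and -0.118. Those of differently numbered libraries ran from -0.308 to 0.300. Deviations within a group of 4 are tied to each other, so these values cannot exclude a pairing. With a replicate block 4 genes were called (Scara5, Fam13a, Bcl3 and Hp), and 1 (Scara5) when the GC trend was removed with the block. Leaving out 1 library gave 0 to 1 called genes: Slc22a7 without EPDR1 replicate 4, and Mir6236 without FCN2 replicate 3. Leaving out libraries from the fit with the GC trend removed, or FCN2 replicates 2 and 4 together, was chosen after seeing the data. Without FCN2 replicate 3 that fit called 1 gene (Gm23935), and without any other library 0. The cause of these changes was not tested.

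The rho of log2 difference and GC content was 0.642, and 0.249 without a filter, 0.0182 with the GC trend removed, by construction, and 0.472 without FCN2 replicates 2 and 4. The log2 difference of mt-Nd2 turned positive, to 0.056 with the GC trend removed and to 0.058 with that and the block or the length trend, and that of Srsf1 to 0.015 with both trends removed. Leaving out 1 library took the log2 difference of Hnrnph1 from -0.078 to 0.15 and that of Rbm25 from -0.020 to 0.23, both below 0 only without EPDR1 replicate 1. The number of genes at unadjusted p under 0.05 was 1097 with all 23 libraries. Depth limits genes of low level, such as Epdr1 with 4 counts in each group.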
